A study of Mus musculus with 16 samples.

Results

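MHC class I molecules present peptides cut from proteins of the cell to CD8 T cells. The genes described here are the 10 that build and supply this pathway: the heavy chains H2-K1 and H2-D1, the light chain B2m, the peptide transporter subunits Tap1 and Tap2, the loading bridge Tapbp (tapasin), the immunoproteasome subunits Psmb8, Psmb9 and Psmb10, and Nlrc5, the transactivator of class I genes. They were chosen by gene symbol, and all 10 were found among the 30819 genes of the expression table. All 10 passed the filter on low values in every comparison.

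Tumour macrophages and tumour monocytes were profiled by RNA-seq. The tumours were MN/MCA1, a mouse fibrosarcoma line grown under the skin and taken 21 days after injection. The hosts were C57BL/6J mice, either C3 wild type or C3 knockout (C3-/-), that is, with or without a functional gene for complement component C3. Macrophages were sorted as CD45+ CD11b+ Ly6G- CD11c- Ly6C- F4/80+ cells and monocytes as CD45+ CD11b+ Ly6G- CD11c- F4/80- Ly6C+ cells. Each of the 4 groups had 4 libraries. Wild-type mice 1 to 4 and knockout mice 6 to 9 each gave 1 library of each cell type, so that mouse numbers pair the cell types but never the genotypes.

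In this pathway the proteasome cuts proteins into peptides, and interferon-gamma exchanges its catalytic subunits Psmb5, Psmb6 and Psmb7 for Psmb8, Psmb9 and Psmb10. Tap1 and Tap2 form the pump that carries the peptides into the endoplasmic reticulum, where tapasin holds an empty pair of heavy chain and B2m next to the pump until a peptide is bound. Nlrc5 binds with the RFX, CREB and NF-Y proteins to a conserved stretch, the SXY module, in class I promoters. Its relative CIITA does the same at class II genes. Macrophages and monocytes express class I without stimulation and raise it with interferon.

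Promoters of the class I chains are shown because the regulators of the pathway act there. Sequences are from RefSeq promoters (GRCm38.p6), which held 8 of the 10 genes (Tap2 and Nlrc5 were missing), written 5′ to 3′ with matched motifs in capitals. The motifs searched on both strands were the kappaB consensus, the core of interferon regulatory factor sites AANNGAAA, the core of the cAMP response element TGACG and the Y box CCAAT. The capitals of H2-K1 and H2-D1 begin with 2 kappaB matches that overlap, shifted by 1 base. H2-K1 (chr17:34000354-34000463, strand -) is shown from 116 to 7 bases before its start site, and B2m (chr2:122147545-122147643, strand +) from 142 to 44 bases before.
H2-K1: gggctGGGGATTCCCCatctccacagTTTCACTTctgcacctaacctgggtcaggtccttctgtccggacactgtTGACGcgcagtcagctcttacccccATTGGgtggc
B2m: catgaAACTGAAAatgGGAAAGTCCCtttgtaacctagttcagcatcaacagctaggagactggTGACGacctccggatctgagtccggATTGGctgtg
Of H2-D1, the enhancer part (chr17:35262923-35262951, strand +) and the TGACG to ATTGG part (chr17:35262993-35263022, strand +) are shown.
H2-D1 enhancer: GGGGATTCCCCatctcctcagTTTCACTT
H2-D1 module: TGACGcgctggcaggtctcactatcATTGG
In all 3 genes TGACG stood exactly 20 bases before ATTGG, the reverse complement of CCAAT. By the GENCODE annotation the stretches of H2-K1 and B2m lie upstream of the gene, and those of H2-D1 in the first exon of a longer transcript. A match is a description of the letters and not evidence of binding. This arrangement was found in 30 of 32851 promoters (0.0913%) in the 250 bases before the start, while TGACG alone was in 17.8%, CCAAT in 33.8%, the interferon core in 21.3% and the kappaB consensus in 3.9%. H2-K1 and H2-D1 matched at 166 of 190 aligned upstream bases (87.4%). The start sites of Tap1 and Psmb9 face away from each other with 225 bases between them, so that both genes share 1 promoter region, which held 1 TGACG and 1 CCAAT. In GENCODE the exons of Tap1 and Psmb9 overlap on opposite strands, as do those of Tap2, Tapbp, Psmb8 and Nlrc5 with other genes. Those of Tapbp also overlap with another gene on the same strand. The kit does not mark strand, so reads in these overlaps cannot be told apart.

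Values are given as normalized reads, that is, reads recovered from the deposited log2 values and divided by a size factor of the library. The size factors were inferred from the deposited log2 values and base means. Libraries held 18689551 to 29049689 recovered reads. Differences and their SE are on the scale of the deposited log2 values, which draw values together, so folds of mean normalized reads are given beside them. A gene was called at an adjusted p under 0.05 (limma, Benjamini-Hochberg over all genes tested). Macrophage markers summed to 633473 to 934662 normalized reads in macrophages and 189372 to 269143 in monocytes, and monocyte markers to 10043 to 19006 and 108162 to 156641, each higher in its own gate. C3 itself still gave reads in the knockout, 1076 to 1390 in macrophages against 3262 to 4830 in wild type, and 4624 to 5204 in monocytes against 14609 to 16134. The 16 libraries thus matched their genotype labels. In sorted bulk RNA, a smaller share of cells with a gene on and less RNA per cell cannot be told apart.

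The genes spanned a wide range of abundance, and their order per kilobase of exon was the same in all 4 groups. Exon length counts every annotated exon of a gene, so this order also depends on the annotation. B2m led with 97244 ± 7283 normalized reads per kb (SD, n = 4) in wild-type macrophages, followed by H2-D1 with 40247 ± 2700 and H2-K1 with 14785 ± 1047. Tapbp came next at 5166 ± 393, then Psmb10 at 2468 ± 101, Psmb8 at 1868 ± 93.9 and Tap1 at 1255 ± 97.8. Tap2 had 891 ± 76.1, Psmb9 792 ± 71.9 and Nlrc5, the regulator, 204 ± 33.8 reads per kb. The structural chains were thus far more abundant than the peptide supply genes, and Nlrc5 was lowest. Neighbours whose libraries overlapped were Tap2 and Psmb9 in every group, and in both knockout groups also Psmb10 with Psmb8 and Psmb8 with Tap1.

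**Figure D1:**
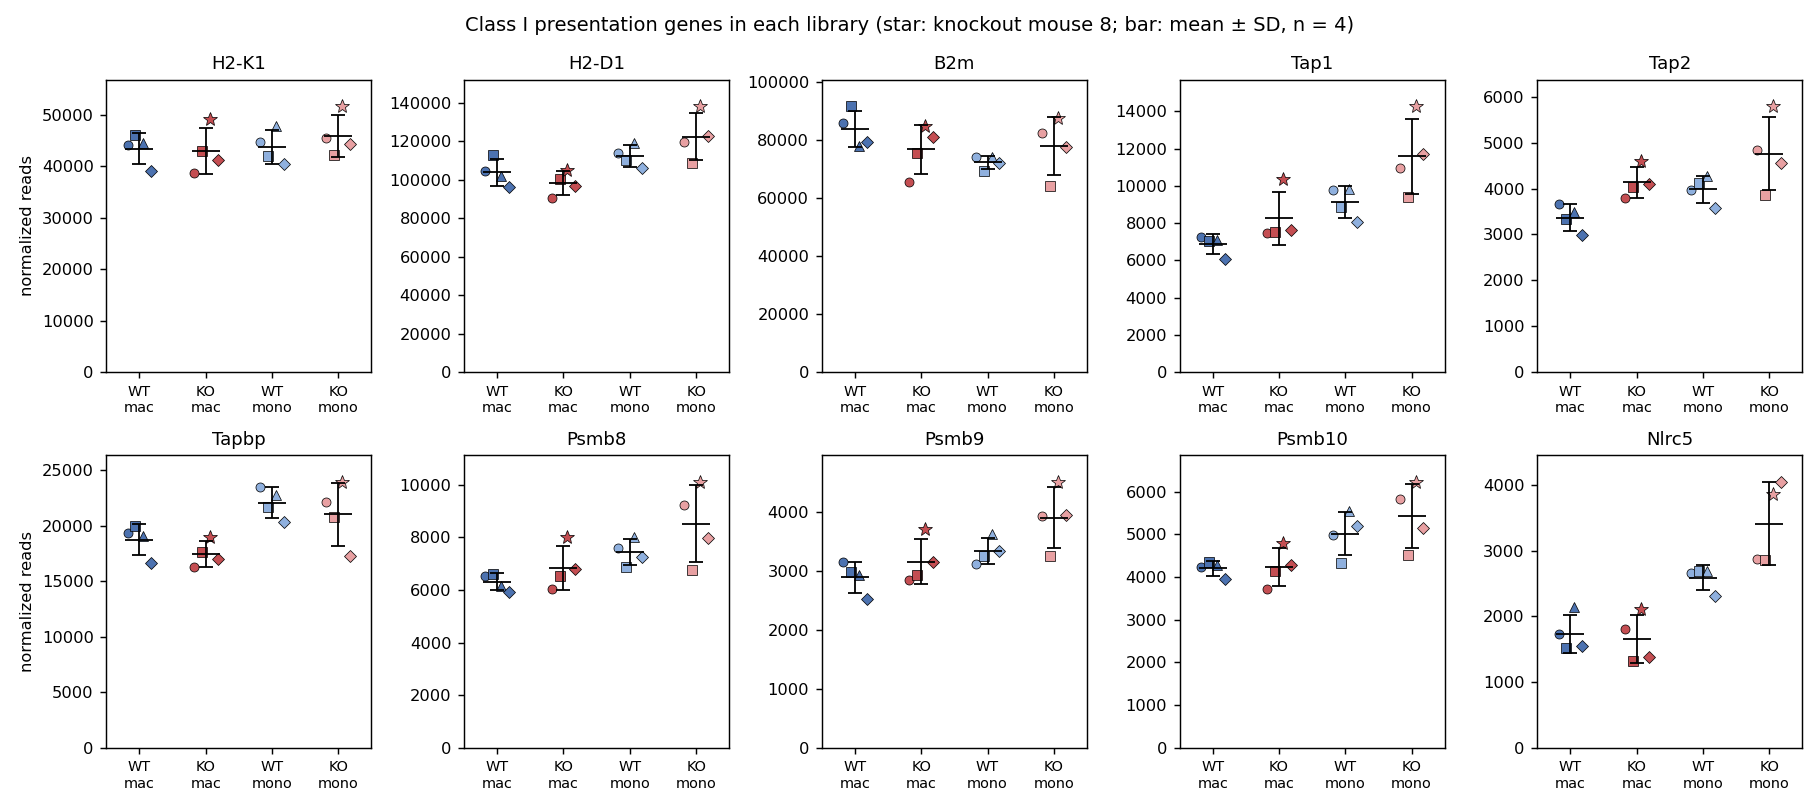
Normalized reads (y axis from 0) of the 10 genes in each library of the 4 groups (WT wild type, KO C3 knockout, mac macrophages, mono monocytes); each point is 1 mouse, the star is knockout mouse 8, and bars show mean ± SD (n = 4). Nlrc5 lies between 1325 and 2141 in all 8 macrophage libraries and between 2303 and 4042 in all 8 monocyte libraries, while H2-K1 lies at about the same level in all 4 groups.

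Loss of C3 moved class I genes little in macrophages. Of the 10, 1 was called higher (Tap2) and 0 lower, against 5.7% of the 12568 genes tested that were called, 2.57% higher and 3.13% lower. Tap2, a subunit of the peptide pump, had 3667, 3337, 3483 and 2988 normalized reads in wild-type mice 1 to 4 and 3793, 4041, 4602 and 4108 in knockout mice 6 to 9. All 4 knockout libraries lay above all 4 of wild type. The difference was 0.21 ± 0.05 (SE, log2; adjusted p = 0.0466), a 1.23-fold higher mean. The call was lost without wild-type mouse 2, 3 or 4 (adjusted p = 0.115, 0.0778 and 0.12), without knockout mouse 7, 8 or 9 (0.0832, 0.0971 and 0.0998) and in the authors' deposited table (adjusted p = 0.0936).

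Its partner Tap1 had 7278, 7055, 7077 and 6084 normalized reads in wild-type macrophages and 7448, 7525, 10380 and 7639 in knockout macrophages. The groups did not overlap, but the upper value came from mouse 8 alone and the gene was not called (0.18 ± 0.08, adjusted p = 0.219, fold of means 1.2). Groups failed to overlap for 2 of the 10 genes, Tap1 and Tap2, and for 13.1% of all genes tested. For the other members the differences were between -0.09 (B2m, adjusted p = 0.468) and 0.09 (Psmb9, adjusted p = 0.516). H2-K1 differed by -0.01 ± 0.06, with a mean of 43016 ± 4434 normalized reads (SD, n = 4) in knockout and 43439 ± 3076 in wild-type macrophages. The median difference over the 10 genes was 0.00, as over all genes tested (0.00). Over the 10 genes, the 95% confidence intervals of the fold in reads, from limma's voom fit, reached from 0.743 to 1.4.

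In monocytes 0 of the 10 genes were called between genotypes, against 3.32% of the 12867 genes tested, 1.4% higher and 1.92% lower. By limma, 3 were at an unadjusted p under 0.05 (Nlrc5, Tap1 and Psmb9), and limma's voom fit and the authors' deposited table called 0. Nlrc5 had 2659, 2689, 2687 and 2303 normalized reads in wild-type mice 1 to 4 and 2871, 2859, 3859 and 4042 in knockout mice 6 to 9. The groups did not overlap, mice 8 and 9 being high and mice 6 and 7 close to wild type. The difference of 0.28 ± 0.09 did not pass (adjusted p = 0.119, fold of means 1.32). Nlrc5 was the 1 gene of the 10 without overlap, and 11.1% of all genes tested had none.

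Tap1 had 9780, 8889, 9829 and 8057 normalized reads in wild-type and 10970, 9421, 14273 and 11691 in knockout monocytes. Here the groups overlapped, since knockout mouse 7 lay under wild-type mice 1 and 3 (0.24 ± 0.09, adjusted p = 0.168). Of the 10 differences, 9 were above 0 and 1, that of Tapbp (-0.06 ± 0.07, adjusted p = 0.766), was below. H2-K1 differed by 0.05 ± 0.07 (adjusted p = 0.756), H2-D1 by 0.09 ± 0.07 (adjusted p = 0.57) and B2m by 0.07 ± 0.07 (adjusted p = 0.685). The median over the 10 genes was 0.11 and over all genes tested -0.01. The 95% intervals of the fold in reads reached from 0.811 to 1.57 over the 10 genes.

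Ciita, the class II transactivator related to Nlrc5, was named after its values were seen. It was called in both cell types, with changes far larger than that of Tap2 (1.23-fold in macrophages). Its mean rose from 1860 ± 166 to 6418 ± 1048 normalized reads (SD, n = 4) in macrophages (adjusted p = 3.31e-06, 3.45-fold) and from 603 ± 128 to 5502 ± 1227 in monocytes (adjusted p = 4.3e-06, 9.13-fold). Nlrc5 went from 1733 ± 287 to 1655 ± 370 in macrophages and from 2585 ± 188 to 3408 ± 631 in monocytes. For Ciita the knockout effect was larger in monocytes than in macrophages (difference of effects -0.89 ± 0.17, adjusted p = 0.0186). For Nlrc5 the same difference was -0.34 ± 0.15 and did not pass (adjusted p = 0.423).

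**Figure D2:**
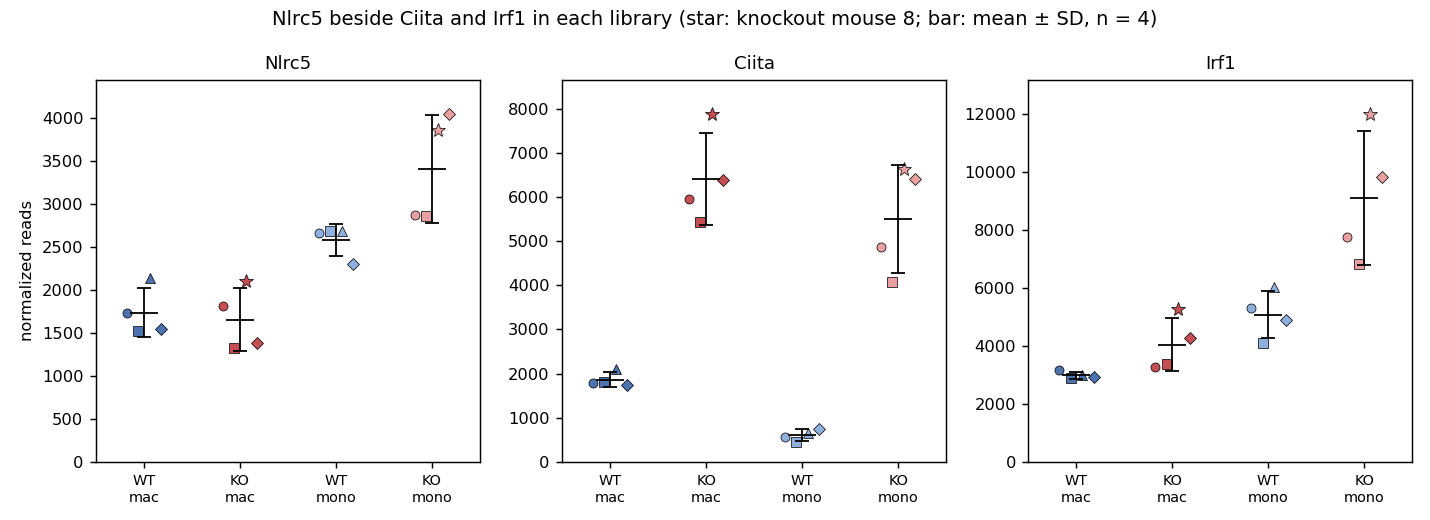
Normalized reads (y axis from 0) of Nlrc5, Ciita and Irf1 in each library of the 4 groups, with mean ± SD (n = 4) and knockout mouse 8 as a star. Ciita lies between 4083 and 7877 in all 8 knockout libraries and at 2105 or less in all 8 wild-type libraries, while Nlrc5 separates by cell type.

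The cell types differed more than the genotypes. In wild-type mice 7 of the 10 genes were lower in macrophages than in monocytes and 1, B2m, was higher, against 63.4% of 12769 genes called in either direction, 31.7% lower and 31.7% higher. In knockout mice 6 were lower (H2-D1, Tap1, Tapbp, Psmb9, Psmb10 and Nlrc5) and 0 higher, against 60.5% of 12772 genes called, 31% higher and 29.6% lower. These comparisons share their libraries with those between genotypes. The median difference over the 10 genes was -0.17 in wild type and -0.22 in knockout, beside -0.01 and 0.00 over all genes tested. Values of both cell types did not overlap for 5 of the 10 genes in wild type and 2 in knockout, and for 57.6% and 55.2% of all genes tested.

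**Figure D3:**
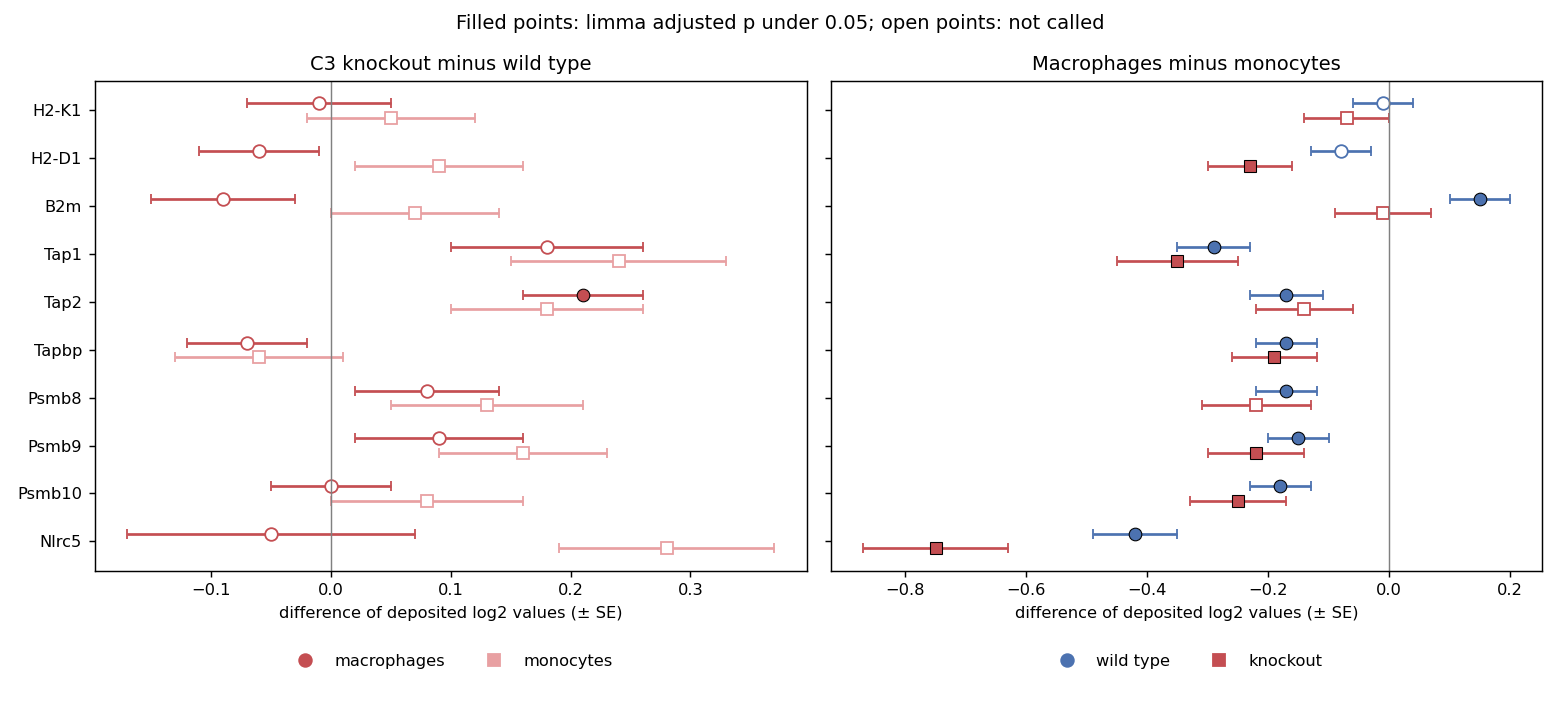
Differences of deposited log2 values with their SE for the 10 genes (y axis), between genotypes in each cell type (left) and between cell types in each genotype (right); filled points were called by limma at an adjusted p under 0.05. Tap2 in macrophages is the one filled point on the left, at 0.21; on the right Nlrc5 lies furthest from 0, at -0.42 in wild type and -0.75 in knockout.

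Nlrc5 showed the largest difference of the 10 between the cell types in both genotypes. Wild-type macrophages had 1728, 1520, 2141 and 1544 normalized reads in mice 1 to 4, each less than the monocytes of the same mouse given above. The difference was -0.42 ± 0.07 (adjusted p = 0.000527), with a mean of 0.671 times that of monocytes. Knockout macrophages had 1809, 1325, 2105 and 1382 in mice 6 to 9, and their mean was 0.486 times that of monocytes (-0.75 ± 0.12, adjusted p = 0.000364). Within single mice the ratio lay between 0.565 and 0.797 for wild type and between 0.342 and 0.63 for knockout.

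Of the transporter genes, Tap1 was called lower in macrophages of both genotypes and Tap2 in those of wild type. Tap1 was lower in 4 of 4 wild-type mice (-0.29 ± 0.06, adjusted p = 0.00102) and in 4 of 4 knockout mice (-0.35 ± 0.10, adjusted p = 0.00947). Within a mouse the ratio of macrophages to monocytes lay between 0.72 and 0.794 in wild type and between 0.653 and 0.799 in knockout, a narrow band. Tap2 passed in wild type (-0.17 ± 0.06, adjusted p = 0.0173) and not in knockout (-0.14 ± 0.08, adjusted p = 0.156). Without wild-type macrophages of mouse 4 the first call was lost (adjusted p = 0.0588), and without knockout monocytes of mouse 7 Tap2 passed in knockout (adjusted p = 0.0284). Neither gene's difference between the genotypes passed a test of its own (difference of effects -0.06 ± 0.12 for Tap1, adjusted p = 0.907, and 0.03 ± 0.10 for Tap2, adjusted p = 0.946). Tapbp, which holds the pump to the heavy chain, had 0.85 times the monocyte mean in wild type (adjusted p = 0.015) and 0.831 times in knockout (adjusted p = 0.0424). Its wild-type call was lost without macrophages of mouse 4 (adjusted p = 0.053). Its knockout call was lost under 9 of 15 alternative settings, with adjusted p from 0.00465 to 0.128 over all 15.

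All 3 immunoproteasome genes were called lower in macrophages of wild type, and Psmb9 and Psmb10 in those of knockout. Psmb8, the chymotrypsin-like subunit, had 6531, 6624, 6170 and 5942 normalized reads in wild-type macrophages and 7582, 6860, 8033 and 7273 in the monocytes of the same mice. It was lower in 4 of 4 mice without overlap (-0.17 ± 0.05, adjusted p = 0.00843). With all 16 libraries in 1 fit this call was lost (adjusted p = 0.0627). Knockout macrophages had 6045, 6548, 7999 and 6800 and knockout monocytes 9239, 6778, 10110 and 7968. All 4 mice again had less in macrophages, mouse 6 by most and mouse 7 by least, and the unpaired test missed the threshold (-0.22 ± 0.09, adjusted p = 0.0506). With the mouse as a block it passed (adjusted p = 0.0124), the 1 member whose call in that comparison the block changed.

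Psmb10 had 0.839 times the monocyte mean in wild type (adjusted p = 0.0137) and 0.78 times in knockout (adjusted p = 0.0125). Psmb9 had 0.868 times (adjusted p = 0.0345) and 0.808 times (adjusted p = 0.0284). The calls of Psmb9 were the least stable of these: each was lost under 9 alternative settings, with adjusted p up to 0.11 in wild type and 0.0885 in knockout.

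Of the chains, H2-D1 was called lower in knockout macrophages, B2m higher in wild-type macrophages and H2-K1 in neither. H2-K1, the K heavy chain, did not pass between the cell types in either genotype (-0.01 ± 0.05 in wild type, adjusted p = 0.927, and -0.07 ± 0.07 in knockout, adjusted p = 0.404). Its group means lay between 43016 and 45928 normalized reads. H2-D1, the D heavy chain, did not pass in wild type (-0.08 ± 0.05, adjusted p = 0.178). In knockout it had 90458, 100251, 105019 and 96823 normalized reads in macrophages and 119796, 108567, 138098 and 122614 in monocytes, lower in 4 of 4 mice without overlap (-0.23 ± 0.07, adjusted p = 0.0115, 0.803 times). Whether H2-D1 differed in this between genotypes was tested and did not pass (difference of effects -0.14 ± 0.08, adjusted p = 0.538).

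B2m was the one member higher in wild-type macrophages. It had 85728, 91527, 77930 and 79336 normalized reads there and 73920, 69335, 73925 and 71891 in monocytes of the same mice, higher in 4 of 4 mice without overlap (0.15 ± 0.05, adjusted p = 0.0204, 1.16-fold). The call was lost without macrophages of wild-type mouse 1 or 2 (adjusted p = 0.0557 and 0.0633) and without monocytes of mouse 2 (0.0534). With all 16 libraries in 1 fit it was lost too (0.0657). In knockout it had 65285, 75582, 84751 and 81105 in macrophages and 82183, 64009, 87531 and 77586 in monocytes, higher in macrophages in 2 of 4 mice, with no call (-0.01 ± 0.08, adjusted p = 0.898). The difference between genotypes was -0.16 ± 0.10 and did not pass (adjusted p = 0.574).

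Where the effect of the knockout was compared across the cell types, 0 of the 10 genes were called, against 0.617% of the 13134 genes tested, 0.358% above 0 and 0.259% below. By limma 1 of the 10, Nlrc5, had an unadjusted p under 0.05, and 0 were called under any alternative setting, the voom fit and the mouse block included.

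Each immunoproteasome subunit replaces a constitutive partner, so their ratio was taken per kb of exon in each library. Exon length counts every annotated exon of a gene, so the levels of different ratios are not ranked. In macrophages Psmb8 to Psmb5 was 1.54 ± 0.13 (SD, n = 4) in wild type and 1.73 ± 0.127 in knockout, and in monocytes 1.39 ± 0.178 and 1.93 ± 0.265. The monocyte groups did not overlap, with 1.19 to 1.58 in wild type and 1.6 to 2.23 in knockout (exact permutation test, two-sided, p = 0.0286, the smallest that 4 against 4 libraries allow). The adjusted value over the 15 ratio tests was 0.0858. Of these tests 5 were at the smallest p, and at least 9 would have to be for any to pass after adjustment, so the adjusted values decide nothing here. Psmb5, the lower part of the ratio, had a mean of 1438 normalized reads in wild-type and 1176 in knockout monocytes. It was not called by limma (-0.21 ± 0.07, adjusted p = 0.141), but the authors' deposited table called it lower in knockout (adjusted p = 0.0193), as did a limma fit of all 16 libraries together (adjusted p = 0.041). Psmb8 had means of 7437 and 8524 and was called neither by limma nor in the authors' deposited table (adjusted p = 0.32).

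Psmb9 to Psmb6 was 0.3 ± 0.0289 in wild-type and 0.355 ± 0.0484 in knockout macrophages, 0.438 ± 0.00906 in wild-type and 0.497 ± 0.0352 in knockout monocytes. Between genotypes this ratio overlapped in macrophages. In monocytes it did not, at 0.428 to 0.449 in wild type and 0.467 to 0.537 in knockout (exact permutation p = 0.0286, adjusted 0.0858). It did not overlap between cell types in either genotype, and was lower in macrophages in 4 of 4 wild-type mice (0.605 to 0.748 times the monocyte ratio of the same mouse) and 4 of 4 knockout mice (0.658 to 0.785 times). The exact permutation of 4 against 4 libraries gave p = 0.0286 in each (adjusted 0.0858), and that within mice p = 0.125, the smallest that 4 mice allow. Psmb6 itself was higher in wild-type macrophages than monocytes (1.27-fold, adjusted p = 0.00026), while Psmb9 was lower. In monocytes the mean of Psmb6 was 3900 normalized reads in wild type and 4017 in knockout, and that of Psmb9 3338 and 3909. Neither was called between genotypes there. Psmb10 to Psmb7 was 7.47 ± 0.449 and 7.63 ± 0.838 in wild-type and knockout macrophages, 8.93 ± 0.502 and 9.4 ± 1.06 in monocytes. It too was lower in macrophages in 4 of 4 mice of each genotype, at 0.775 to 0.894 times in wild type and 0.779 to 0.888 times in knockout (within mice, each exact permutation p = 0.125). Psmb8 to Psmb5 was higher in macrophages in 4 of 4 wild-type mice (1.03 to 1.22 times, exact permutation p = 0.125) and in 1 of 4 knockout mice.

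**Figure D4:**
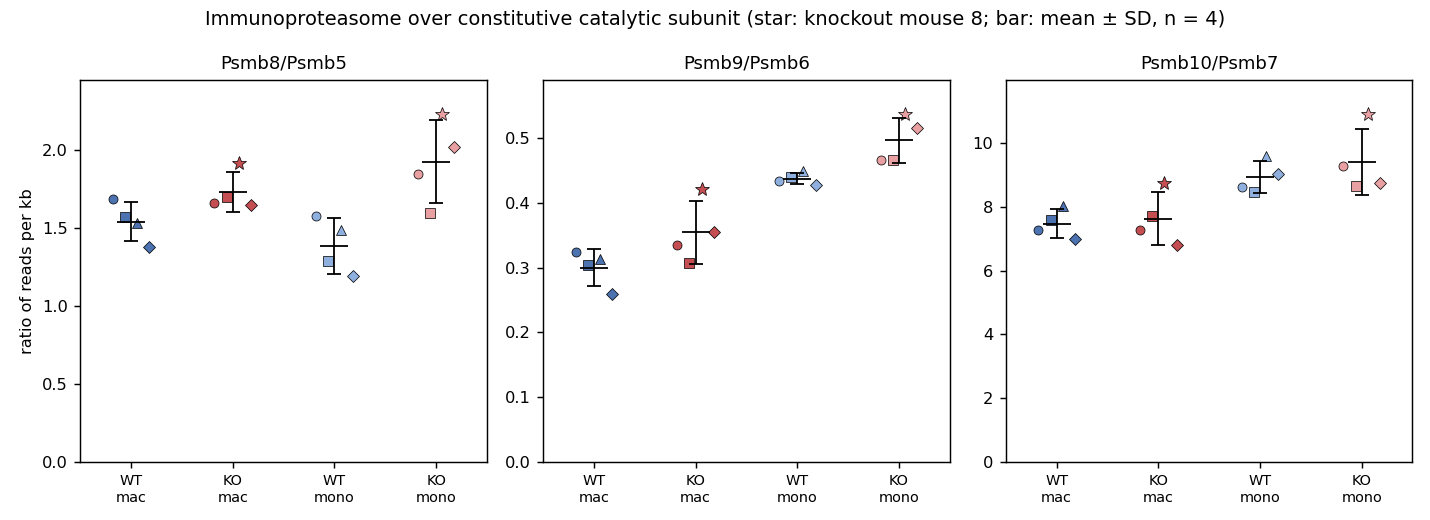
Ratio of each immunoproteasome subunit to its constitutive partner (reads per kb over reads per kb, y axis from 0) in each library of the 4 groups, with mean ± SD (n = 4) and knockout mouse 8 as a star. Psmb9 to Psmb6 runs from 0.259 to 0.421 in macrophages and from 0.428 to 0.537 in monocytes.

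The other genes of the pathway were read as lists, to be set beside the shares of all genes called given above. Between the cell types these shares were 63.4% in wild type (31.7% lower, 31.7% higher) and 60.5% in knockout (29.6% lower, 31% higher). Of 11 other core proteasome subunits, 0 were called between genotypes in either cell type. Between the cell types Psma7 was lower in macrophages of both genotypes (-0.28 ± 0.04 and -0.34 ± 0.06, adjusted p = 0.000226 and 0.000357), Psmb2 was higher (0.18 ± 0.04, adjusted p = 0.00316) and Psmb4 lower (-0.11 ± 0.04, adjusted p = 0.0492) in wild type, and 8 and 10 of the 11 were not called. The Psmb4 call was lost under 11 of 14 settings, with adjusted p from 0.0321 to 0.148 over all 14. Of 5 activator and assembly genes, 4 were lower in macrophages of both genotypes. These were Psme1 and Psme2, the interferon-inducible PA28 cap (0.814 and 0.839 times the wild-type monocyte mean, adjusted p = 0.00196 and 0.00184), Psme4 (0.691 times, adjusted p = 0.00176) and the assembly chaperone Pomp (0.777 times, adjusted p = 0.000285). The median difference of the 5 was -0.21 in wild type and -0.28 in knockout, and that of the core subunits -0.01 and -0.06. Psme4 only just passed in knockout (adjusted p = 0.0496) and lost that call under 10 of 15 settings.

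Of 9 genes listed as helpers of class I loading, 7 were higher in macrophages of wild-type mice and 6 in knockout, and 2 were lower in each (median 0.19 and 0.29). Hspa5, the chaperone BiP, missed the threshold in knockout (0.28 ± 0.12, adjusted p = 0.0582) though it was higher in 4 of 4 mice. With the mouse as a block it passed (adjusted p = 0.00277), which makes the knockout count 7. Pdia3, the disulfide isomerase of the loading complex, was 1.69-fold higher in wild type (0.54 ± 0.05, adjusted p = 1.71e-06), Canx, the membrane chaperone calnexin, 1.45-fold (adjusted p = 8.96e-05) and Calr, calreticulin, 1.37-fold (adjusted p = 6.71e-05). Erap1, which trims peptides, was 1.24-fold higher (adjusted p = 0.00169). The 2 lower genes were Lnpep, the endosomal trimming enzyme (0.547 times, adjusted p = 4.65e-05), and Tapbpl, the peptide editor related to tapasin (0.771 times, adjusted p = 0.00119).

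Between genotypes, Calr was called among the helpers, 1.25-fold higher in knockout macrophages (0.23 ± 0.05, adjusted p = 0.0253). Its mean was 16220 normalized reads in wild type and 20205 in knockout. The call was lost without wild-type mouse 1, 3 or 4 (adjusted p = 0.077, 0.0737 and 0.0629), without knockout mouse 7, 8 or 9 (0.0626, 0.0614 and 0.0791) and in the authors' deposited table (0.162). All 9 helper differences in macrophages were above 0 (median 0.12), and 0 of 9 were called in monocytes.

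Of the 16 other class I and class I-like heavy chains listed, 11 could be tested between the cell types. In wild type 7 were lower and 2 higher in macrophages, and in knockout 8 and 2 (median -0.43 and -0.42), beside 63.4% and 60.5% of all genes called. H2-Q7, lower in 4 of 4 wild-type mice, passed in wild type with the mouse as a block (adjusted p = 0.00952) and not without it (-0.20, adjusted p = 0.0923). Cd1d1, which presents lipids, had 0.221 times the wild-type monocyte mean (-1.51 ± 0.15, adjusted p = 6.49e-06) and H2-T24 0.341 times (-1.11 ± 0.08, adjusted p = 3.62e-07). H2-T23, the Qa-1 chain seen by NK receptors, had 0.608 times (adjusted p = 5.72e-05). H2-Q10 was near the limit of detection in macrophages, with a mean of 2.29 against 40.9 normalized reads in wild-type monocytes (adjusted p = 7.23e-07). The 2 higher genes were H2-M3, which presents formylated peptides (1.28-fold, adjusted p = 0.0015), and Mr1, which presents vitamin metabolites (1.5-fold, adjusted p = 0.000363).

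Between genotypes 1 of 10 such chains was called in macrophages: H2-T24 fell from 496 to 352 normalized reads (-0.33 ± 0.08, adjusted p = 0.0415). Without wild-type mouse 1, 2 or 3 the call was lost (adjusted p = 0.109, 0.081 and 0.0961), as without knockout mouse 6, 7 or 9 (0.0784, 0.0572 and 0.0864). In the authors' deposited table H2-T24 was called (adjusted p = 0.00572), and H2-T23, not called by limma, was called higher in knockout (adjusted p = 0.0437). In monocytes 0 of 11 were called. H2-M2 was under the filter on low values, so the main fit did not test it. The filter acts on the deposited values, which draw values together, and not on normalized reads. H2-M2 had 12.4 to 60.4 normalized reads in knockout and 1.9 to 5.92 in wild-type macrophages, without overlap. Reads of H2-K1, H2-D1 and the H2-Q and H2-T genes can be split between near-identical copies, and how the counting treated them is not given in the sources used here.

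Of 15 measured genes of class I transcription and interferon-gamma signalling, 11 were lower in macrophages than in monocytes of wild-type mice and 8 in knockout, with 0 higher (median -0.31 and -0.19). Of all genes tested, 31.7% and 29.6% were lower. Jak2, a kinase of the interferon-gamma receptor, had 0.267 times the wild-type monocyte mean (-1.36 ± 0.12, adjusted p = 7.52e-06), Irf2 0.514 times (adjusted p = 8.16e-08) and Jak1 0.678 times (adjusted p = 3.12e-06). Irf1, an interferon-induced activator of class I genes, had 0.589 times (adjusted p = 7.26e-05). Markers of tumour stroma also differed between the gates: 6 fibroblast and sarcoma genes summed to 170 to 2240 normalized reads in macrophages and 783 to 6596 in monocytes. Their part in these differences was not tested.

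Between genotypes 2 of the 15 were called, both in monocytes. Irf1 had 5301, 4090, 6037 and 4896 normalized reads in wild-type and 7748, 6816, 11997 and 9844 in knockout monocytes, without overlap (0.60 ± 0.13, adjusted p = 0.0335, 1.79-fold). Socs1, the feedback inhibitor of JAK kinases, rose 1.9-fold, from a mean of 601 to 1140 (0.65 ± 0.14, adjusted p = 0.0332). Irf1 lost its call without wild-type mouse 1, 2 or 4 (adjusted p = 0.0634, 0.0864 and 0.0904) and without knockout mouse 6, 8 or 9 (0.05, 0.0554 and 0.118). Socs1 lost it without wild-type mouse 2, 3 or 4 (0.0951, 0.0933 and 0.0893) and without knockout mouse 6 or 9 (0.053 and 0.109). Both were called in the authors' deposited table (adjusted p = 6.33e-05 for Irf1 and 0.000513 for Socs1). In macrophages 0 of 15 were called. Irf1 had a fold of means of 1.35 there, without overlap between the groups (adjusted p = 0.125).

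Ifng itself was at 0 to 7.23 normalized reads in every library, and at 0 in 4 of the 8 macrophage libraries. The markers of T and NK cells, its usual sources, summed to 43.4 to 72.9 normalized reads in knockout and 121 to 185 in wild-type macrophages, and to 141 to 375 and 119 to 951 in monocytes (9 of 10 listed markers measured). In macrophages Cd4 (16 to 41 in knockout, 61.7 to 90.4 in wild type) and Gzmb (2.12 to 16.6 and 22.4 to 58) did not overlap between genotypes, while the defining markers Cd3d, Cd3e, Cd3g and Cd8a overlapped at 12.3 reads or less. Ncr1, which defines NK cells, was at 0 in 3 of 4 libraries of each macrophage group.

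Sums of 6 of the 9 marker lists did not overlap between genotypes in macrophages, and 1 of 9 in monocytes. All 4 red blood cell markers measured were lower in knockout macrophages without overlap, summing to 145 to 242 normalized reads against 428 to 1272, and their sum was also lower in knockout monocytes (309 to 1274 against 1430 to 3569). In the other lists the separation lay in few genes. Of 3 endothelial markers, Kdr had 756 to 888 in knockout and 211 to 404 in wild-type macrophages, while Pecam1 (47 to 160 and 46.2 to 96) and Cdh5 (2.12 to 25.7 and 11.8 to 32.3) overlapped. Of 4 B cell markers, 1 did not overlap (Cd79b, higher in knockout). The dendritic cell sum followed Itgax, at 4115 to 5290 in knockout and 5394 to 6726 in wild-type macrophages. Clec9a went the other way without overlap, at 13.9 to 23.3 in knockout and 0.923 to 12.4 in wild type. The macrophage list was lower in knockout with Mrc1, Mertk and Apoe without overlap. In monocytes the dendritic cell markers also went both ways. Cd209a (128 to 790 in knockout, 2.57 to 15 in wild type) and Xcr1 (43.4 to 74.2 and 19.3 to 32.7) were higher in knockout without overlap. Itgax was lower without overlap (1925 to 3368 and 3564 to 4781), and Flt3, Zbtb46, Clec9a and Ccr7 overlapped. The part of these cells in the differences between genotypes was not tested.

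The 10 genes deviated from their group means together. Over the 45 pairs of genes, the correlation of these deviations across the 16 libraries of 8 mice was above 0 in 45, with a median of 0.76 and a range of 0.06 to 0.94. Libraries share their preparation and scaling, so this is a description. Nlrc5 was the least tied, with a median correlation of 0.34 with the other 9, while H2-D1, Tap1, Tap2 and Psmb8 each had 0.84. Without knockout mouse 8 the median over the pairs was 0.64 and the range -0.34 to 0.92. Tap1 and Psmb9, which share a promoter region and overlap in their exons, had 0.86 with all mice and 0.71 without mouse 8. Pairs on different chromosomes reached higher values with all mice, as Psmb8 and Psmb10 (0.94) and B2m and Psmb8 (0.91).

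Knockout mouse 8 stood out in both cell types. It had the highest value of its group for 10 of 10 genes in macrophages and for 9 of 10 in monocytes, where Nlrc5 was highest in mouse 9. The median deviation of the 10 genes from their group means was 0.19 log2 reads in its macrophages and 0.20 in its monocytes. Irf1 lay 0.41 and 0.43 above its group means in the same libraries. Without both libraries of mouse 8, 5 of the 10 genes in place of 6 were lower in knockout macrophages than in monocytes, Tapbp losing its call (adjusted p = 0.0992). At the low end were knockout mouse 6 in macrophages, lowest for 9 of 10 genes, and knockout mouse 7 in monocytes, also lowest for 9. The median deviation of mouse 7 in monocytes was -0.26, further from 0 than that of mouse 8. Without monocytes of mouse 7, Tap2 and Psmb8 passed between the cell types in knockout (adjusted p = 0.0284 and 0.00835). Tapbp lost its call there (adjusted p = 0.0726). In wild type 0 of the 10 genes were highest in the same mouse in both cell types, and mouse 4 was lowest for 8 in macrophages and 6 in monocytes. The T and NK cell markers of mouse 8 summed to 62.5 in macrophages and 161 in monocytes, within the range of the other knockout mice. Its fibroblast and sarcoma markers were far below theirs, at 170 against 394 to 928 in macrophages and 783 against 3775 to 5772 in monocytes. It was also lowest for red blood cell markers (145 and 309) and dendritic cell markers (4259 and 2917), and highest for macrophage markers (761767 and 218318), in both cell types. Its B cell markers were highest in monocytes (186) and not in macrophages (157). The dendritic cell sums were mostly Itgax. The part of these in the values of mouse 8 was not tested.

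**Figure D5:**
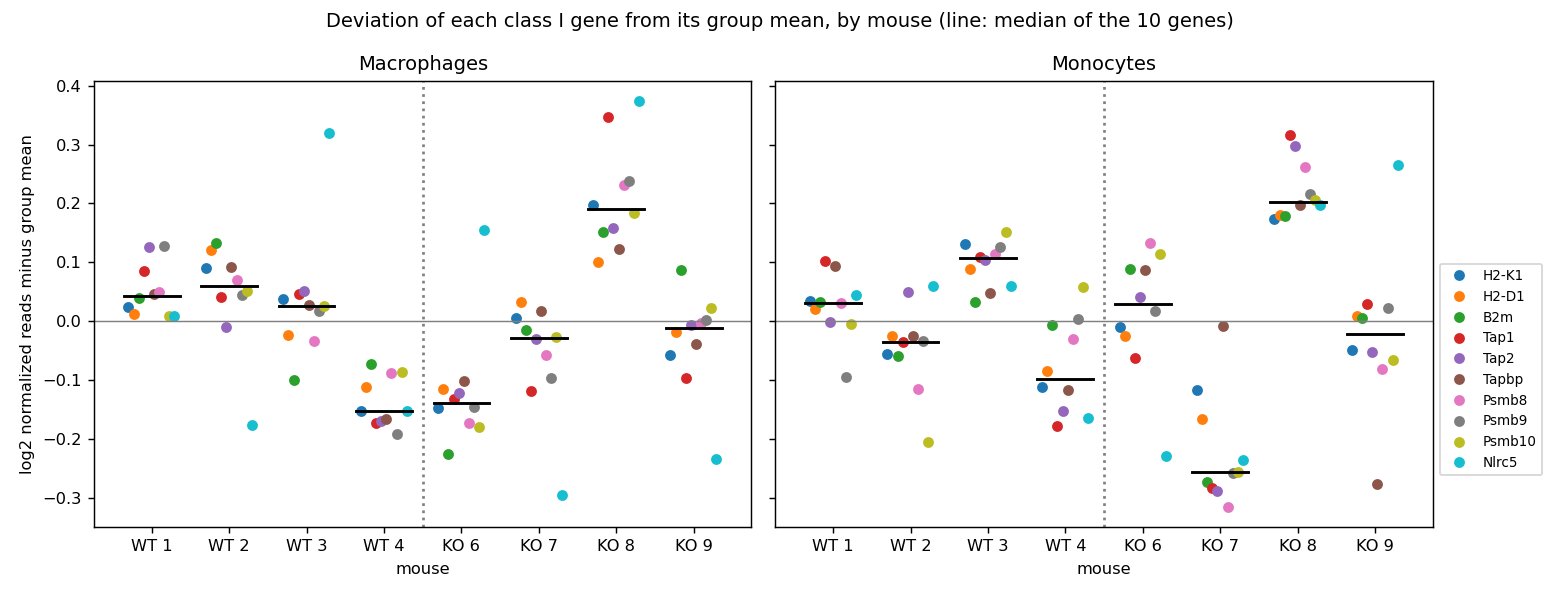
Deviation of each of the 10 genes from the mean of its group (log2 normalized reads, y axis) in macrophages (left) and monocytes (right) of each mouse (x axis); each colour is 1 gene and the black line is the median of the 10. All 10 points of knockout mouse 8 lie above 0 in both panels, with medians of 0.19 and 0.20.

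The genes whose levels ran most like those of 2 members were taken by Pearson correlation of deposited log2 values across the 16 libraries, over 13134 genes. For Nlrc5 they were Uba7 (0.948), 1810026B05Rik (0.943), Lynx1 (0.942), Ggct (0.939) and Gnas (0.937). For H2-K1 they were Ly6a (0.884), Cd40 (0.87), Il18bp (0.865), H2-Q7 (0.839) and Calhm6 (0.788), with H2-D1 (0.766) and Psmb8 (0.747) next. Among the members, Tap1 was closest to Nlrc5 (0.857) and B2m furthest (-0.152). These correlations hold the difference between cell types, which Nlrc5 shows and H2-K1 does not.

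On chromosome 17 the 7 members lie between positions 33915899 and 35267499 (GRCm38), and C3 lies on the same chromosome. Psmb10 and Nlrc5 lie on chromosome 8 and B2m on chromosome 2. Of the genes in that interval other than class I and class II genes, 3 of 54 tested (5.56%) were called between genotypes in macrophages, Btnl1, Ddah2 and Gm20513, and 1 of 53 (1.89%), Gm20513, in monocytes. Between the cell types 24 of 52 were called in wild type (46.2%) and 26 of 54 in knockout (48.1%).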

How the data were processed

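RNA-seq libraries were made from 5 ng of RNA each with the SMART-Seq v4 kit, per the labels' protocols, in 16 samples (4 groups of 4). The build GRCm38 and the tools STAR 2.7.2b, DESeq2 and bcl2fastq 2.19.0.316 are named in the submitters' processing notes. The role of each tool is, like the annotation, not given in the sources used here. Deposited by the authors were log2 values for 30819 genes (no header names the transform) and, per cell type, a table of wild type against knockout. The authors' log2 fold changes there were turned to knockout minus wild type, and the adjusted p-value and p-value columns stand as deposited. The base mean deposited by the authors is a signal, the mean of reads over size factors, and its Wald statistic is a score of the authors' fit, not used further. The matrix had 0 columns of other samples.

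Reads were recovered by inverting a regularized log2 with the deposited base means. Among 20443 genes (base mean 1 or more), 81.3% of values came within 0.05 of whole reads (41.7% above a base mean of 1000, where the median distance was 0.00258% of the value). Recovered reads ran from 18689551 to 29049689 per library, which leaves counting error small for genes of this abundance.

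limma 3.58.1 (R 4.3.3, trend and robust estimation) was fitted to the deposited log2 values of genes reaching a linear value of 10 in at least 4 libraries, using the 8 libraries compared, or all 16 where knockout effects were compared between cell types. The script was tested on simulated data. Exact permutation of 4 against 4 cannot go below p = 0.0286. The titles number the mice, and by these numbers the same mouse gave both cell types. Deviations from the group means correlated at 0.072 to 0.435 (wild type) and 0.027 to 0.235 (knockout) within a mouse. Between mice they correlated at -0.335 to 0.183 and -0.237 to 0.18. These ranges overlap, so the correlations do not show the pairing mouse by mouse. No library was a copy of another (chi-square per gene 9.52 to 41 over 24 pairs). The labels do not say that mice were from separate litters or cages.

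The members and gene lists were chosen with earlier results of these data known. Named were all members, of the other lists the called genes (at most the 4 with the smallest adjusted p per list and comparison) and Psmb5, Psmb6 and Psmb7, and the 5 genes most like Nlrc5 and H2-K1. Named outside that rule after their values were seen were Ciita, Tapbpl, Hspa5, H2-Q7, H2-M2, H2-M3, Mr1, Btnl1, Ddah2, Gm20513 and single cell type markers. H2-K2, H2-T3 and Nfya were not matched by symbol, and H2-Q1, H2-Q2 and H2-M2 were under the filter. Alternatives were no filter, no trend or robust estimation, TMM scaling, all libraries in 1 fit, the mouse as a block, each library left out and the authors' table. Chosen after seeing the data were voom on recovered reads, leaving out knockout mouse 8 and permuting ratios within mice.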

Additional observations from a re-analysis of the deposited data

Results flagged for a closer look

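Of 40 sets of 4 libraries (10 genes in 4 groups), 2 held a library far from the other 3, where chance gives about 1 in 20. Tap1 had 10380 normalized reads in macrophages of knockout mouse 8, against 7448 to 7639 in the others. Nlrc5 had 2303 in monocytes of wild-type mouse 4, against 2659 to 2689 in the others. For Ciita, which is no member, the knockout effect differed between macrophages and monocytes by -0.89 on the log2 scale (limma interaction, adjusted p = 0.0186, and 0.0521 without macrophages of wild-type mouse 3).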

How the results depend on the processing

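The count of class I genes called between genotypes in macrophages, 1, was 0 without the filter, without trend and robust estimation, with voom on recovered reads, in the authors' deposited table and with all 16 libraries in 1 fit, and 0 to 1 with each library left out. In monocytes, and for the difference of effects, it was 0 under every alternative run. Between cell types the wild-type count of 8 was 5 with all 16 libraries in 1 fit and 5 to 8 with each library left out. The knockout count of 6 was 7 with all 16 libraries in 1 fit and 4 to 7 with each left out. In wild type and knockout the counts were 7 and 4 with TMM scaling. They were 7 and 4 without trend and robust estimation, and 7 and 5 without the filter. With the mouse as a replicate block the knockout count was 7, Psmb8 being the gene gained, and the wild-type count stayed at 8. No paired analysis was possible between genotypes because they share no mouse. Over all genes, 427 were called between genotypes in monocytes, but 981 with all 16 libraries in 1 fit, 1329 in the authors' deposited table and 237 to 459 with each library left out. In macrophages 717 were called, and 458 to 656 with each left out. The 81 called for the difference of effects became 251 with the block, 50 without knockout mouse 8 and 48 to 125 with each left out. Of 790 member values under alternatives, 45 lost a call, 5 gained one and 0 reversed a called direction. The planned edgeR and DESeq2 fits were not run, since the deposited unit is log2 values. The cause of these changes was not tested.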
